A study of Mus musculus with 4 samples.

Results

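The proteasome subunits, activators and assembly chaperones were followed in HL-1 cells, an immortal line of mouse atrial muscle cells that divides and keeps contracting in culture. For 24 h, 2 of the samples were stimulated electrically at 300 beats per minute. The labels give this as 1.5 to 2 times the control rate. The 2 control samples beat at their own pace without stimulation. All samples were of this 1 line, grown to confluence in supplemented Claycomb medium on coverslips coated with gelatin and fibronectin. No group was paced at the control rate, so an effect of rate cannot be told apart from one of the stimulation. Total RNA of each sample was hybridised to 1 Affymetrix array. The titles number the stimulated samples as experiments 1 and 2, and a protocol text numbers 1 control sample as 2. Whether these numbers stand for separate cultures is not stated, so the array-to-array spread behind the p-values may be technical in part.

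Members were all probe sets annotated to exactly 1 gene symbol that begins with Psma, Psmb, Psmc, Psmd, Psme, Psmf or Psmg and a number. This gave 103 of the 45101 probe sets on the array, for 49 genes of 18193. Of these, 2 genes are named after a subunit but encode none: Psmc3ip, a meiotic recombination factor, and Psme3ip1, a partner of the nuclear activator Psme3. The other 47 genes, with 100 probe sets, are called proteasome genes here. Psme2 shares its probe set with a second symbol in the annotation and is not analysed here.

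The proteasome is the chamber in which cells break down proteins tagged with ubiquitin. Its core particle is a barrel of outer alpha rings and inner beta rings, and the beta subunits Psmb5, Psmb6 and Psmb7 carry the cutting sites. A regulatory particle sits on the barrel. Its base holds a ring of ATPases that unfold the substrate, and its lid removes the ubiquitin chain. In immune cells and after interferon, Psmb8, Psmb9 and Psmb10 replace the standard catalytic subunits to form the immunoproteasome, which serves antigen presentation. Heart muscle relies on the proteasome to turn over damaged and misfolded contractile proteins.

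Levels below are RMA values on the log2 scale, and changes are log2 differences, stimulated minus control, with the standard error of the limma fit. A gene is said to have risen or fallen only if its Benjamini-Hochberg adjusted p, over the 13050 genes tested, was below 0.05. Each gene was represented by its brightest probe set and tested if it averaged at least 4.39 over the 4 arrays, a level that 40% of probe sets do not reach. Of the 47 proteasome genes, 45 passed this level. The other 2 were Psma8, the alpha subunit of the testis, at 3.55 and 3.54 in stimulated and 3.73 and 3.71 in control arrays, and Psmb11, the catalytic subunit of the thymus, at 3.59 and 3.50 in stimulated and 3.54 and 3.43 in control arrays.

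With stimulation, proteasome genes as a group read somewhat higher, and the shift was small for any single gene. Of the 45 tested, 37 (82.2%) had a change above 0, while 49.1% of all genes tested did. Proteasome genes are bright, with a median level at percentile 96.7 of all genes with a probe set. Of the 45, 29 lay at or above percentile 95. The shares of all genes given beside them were not matched for level. The median change was 0.26 in proteasome genes and -0.01 in all genes, and 20.7% of all genes lay above the proteasome median. In 31 of the 45 (68.9%) both stimulated arrays lay above both control arrays, against 27.6% of all genes, and in 5 (11.1%) both lay below, against 27.7%. Only Psmd11, a lid subunit, and Psmc4, a base ATPase, rose by limma's adjusted test, and 0 fell. These 2 are 4.44% of the 45, against 3.91% of all genes that rose and 1.64% that fell (5.55% in either direction), so the count of called genes does not set the group apart. At an unadjusted p under 0.05, 15 (33.3%) were higher and 2 (4.44%) lower, against 13.9% and 11.7% of all genes.

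**Figure D1:**
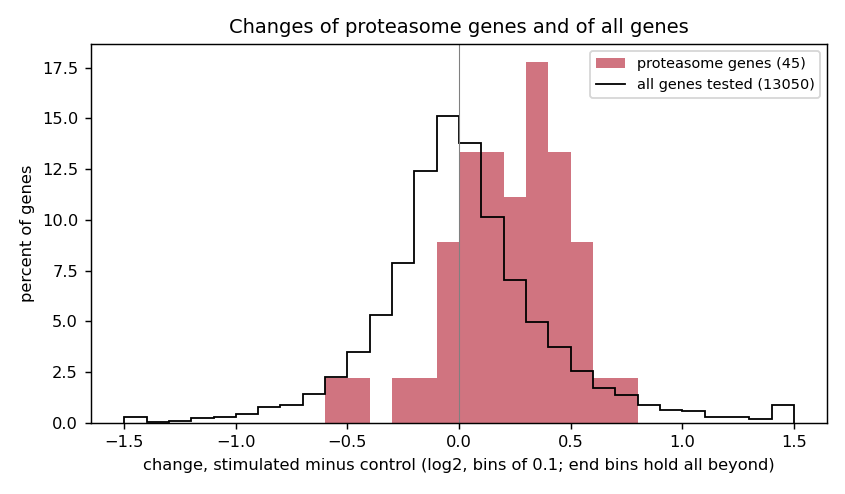
Share of genes in percent (vertical axis) by log2 change, stimulated minus control (horizontal axis, bins of 0.1), for the 45 proteasome genes tested (bars) and all 13050 genes tested (line). The proteasome genes are centred near 0.26 and the line near 0, and the largest proteasome changes, 0.80 and 0.64, lie well inside the range of all genes.

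The shift was seen between every stimulated and every control array. The median difference over the 45 genes was 0.30 and 0.20 for stimulated 1 minus control 1 and control 2, and 0.27 and 0.18 for stimulated 2 minus the same arrays. Within groups it was -0.0025 for stimulated 1 minus stimulated 2 and -0.08 for control 1 minus control 2. The smallest difference between groups was thus larger than both differences within groups.

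The median change differed by class of subunit. The core, base and lid, 31 genes tested in all, had a median change of 0.33, with 30 changes above 0. In 28 of them both stimulated arrays lay above both controls. Of all genes tested, 49.1% had a change above 0 and 27.6% had arrays so placed. By class the median was 0.43 in the lid, 0.34 in the base, 0.26 in the alpha ring and 0.25 in the beta ring. It was 0.05 in the assembly chaperones, -0.04 in the activators and inhibitor, and -0.30 in the immunoproteasome. The classes hold 3 to 9 genes each, and the order of their medians was not tested. They also differed in brightness. The median percentile of level was 96.5 in the lid, 97.4 in the base, 98.1 in the alpha ring and 98.5 in the beta ring. It was 82.2 in the assembly chaperones, 91.4 in the activators and inhibitor, and 81.9 in the immunoproteasome. The part of level in the class medians was not tested. The medians of the activators and of the chaperones changed sign under some settings given in the closing section.

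**Figure D2:**
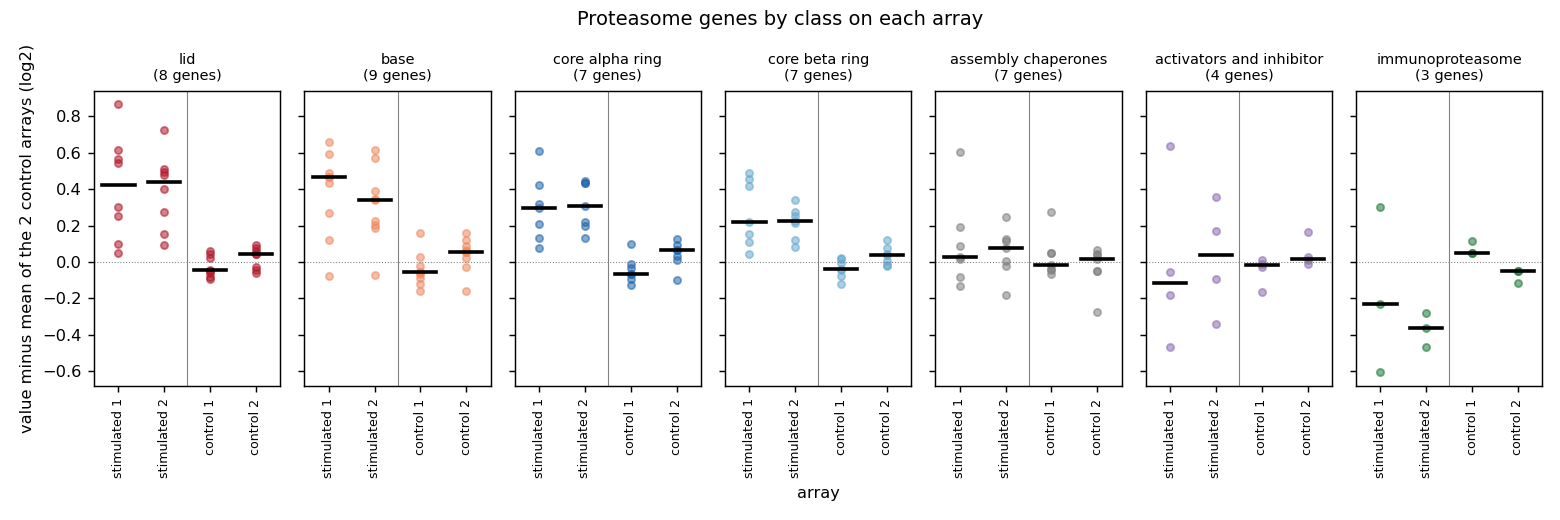
Log2 value of each gene minus its mean on the 2 control arrays (vertical axis) on each array (horizontal axis), with 1 panel per class; points are genes and bars the class median on that array. On stimulated 1 and stimulated 2 the medians were 0.42 and 0.44 in the lid and 0.47 and 0.34 in the base, and they were -0.23 and -0.36 in the immunoproteasome.

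Of the 8 lid genes tested, Psmd11 rose, 0 fell, all 8 changes were above 0, and 7 had stimulated arrays wholly above the controls. Of all genes tested, 3.91% rose, 1.64% fell, 49.1% had a change above 0 and 27.6% had arrays so placed. Psmd11, which clamps the lid to the core particle, read 12.12 and 11.98 in stimulated arrays, against 11.17 and 11.33 in control arrays. The arrays were separated by 0.65, and the change was 0.80 ± 0.13 (SE, 1.74-fold, adjusted p = 0.0352 by limma). Without 1 array the Psmd11 change was 0.72 to 0.88 and its adjusted p was 0.134 or 0.0722 when stimulated 1 or 2 was dropped, and 0.181 or 0.166 when control 1 or 2 was. With the mean of all its probe sets it was 0.37 (adjusted p = 0.0907).

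Psmd12, a scaffold subunit of the lid, read 11.29 and 11.17 in stimulated arrays, against 10.71 and 10.63 in control arrays. Its change was 0.55 ± 0.13 (adjusted p = 0.0604 by limma). Psmd14, the enzyme that cuts off the ubiquitin chain, read 11.52 and 11.47 in stimulated arrays, against 10.91 and 11.00 in control arrays, a change of 0.54 ± 0.12 (adjusted p = 0.0604 by limma). Both missed the threshold although their arrays were separated by 0.45 and 0.47. They passed it by limma with a filter at the 60th percentile (adjusted p = 0.049 and 0.0492) and with a mean-dependent variance prior (0.0403 and 0.0369). They also passed in the limma fit that averaged the probe sets of a gene (0.0474 and 0.0471). Both have only 1 probe set, so their own values were unchanged there and only the other genes in the fit differed. The remaining lid genes changed by 0.47 (Psmd3), 0.39 (Psmd7), 0.26 (Psmd8), 0.13 (Psmd13) and 0.07 (Psmd6). At an unadjusted p under 0.05, 5 lid genes were higher and 0 lower, where 13.9% and 11.7% of all genes were.

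Of the 9 base genes tested, Psmc4 rose and 0 fell, and 8 changes were above 0. Of all genes tested, 3.91% rose, 1.64% fell and 49.1% had a change above 0. Psmc4, an ATPase of the unfolding ring, read 11.39 and 11.35 in stimulated arrays, against 10.67 and 10.80 in control arrays. Its change was 0.64 ± 0.12 (1.55-fold, adjusted p = 0.0456 by limma), and its second probe set changed by 0.43. Without 1 array the change was 0.57 to 0.70 and the adjusted p was 0.157 or 0.098 when stimulated 1 or 2 was dropped, and 0.212 or 0.187 when control 1 or 2 was.

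Psmc6, another ATPase of the ring, read 11.72 and 11.52 in stimulated arrays, against 11.07 and 11.18 in control arrays, a change of 0.49 ± 0.14 (adjusted p = 0.0899 by limma). Psmd1, the large scaffold of the base, read 11.67 and 11.80 in stimulated arrays, against 11.11 and 11.36 in control arrays, a change of 0.50 ± 0.14 (adjusted p = 0.0955 by limma). In both genes the stimulated arrays lay above the controls by at least 0.31. Psmd2, the other large scaffold, changed by 0.41, the ATPases Psmc5, Psmc2 and Psmc1 by 0.33, 0.31 and 0.17, and the ubiquitin receptor Psmd4 by 0.34. Psmc3 was the exception among the ATPases, at 11.10 on both stimulated arrays, against 11.20 and 11.15 in control arrays, a change of -0.07 ± 0.12 (adjusted p = 0.765 by limma). At an unadjusted p under 0.05, 4 base genes were higher and 0 lower, where 13.9% and 11.7% of all genes were.

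**Figure D3:**
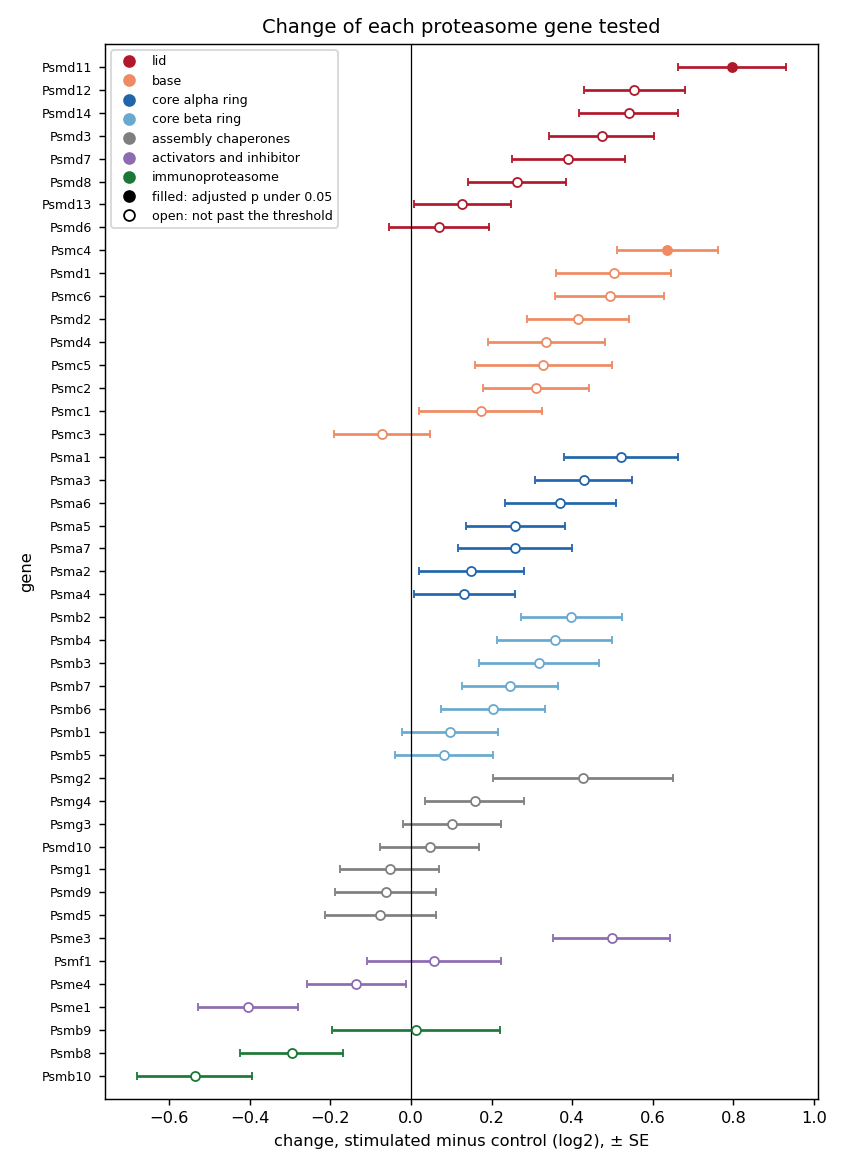
Log2 change with its SE, stimulated minus control (horizontal axis), of each of the 45 proteasome genes tested (vertical axis), coloured by class; filled points passed the adjusted p threshold. The only filled points are Psmd11 at 0.80 and Psmc4 at 0.64, and the lowest points are Psmb10 at -0.54 and Psme1 at -0.40.

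Since 30 of the 31 core, base and lid genes tested had a change above 0, although only 2 passed the test, proteasome promoters were searched for shared motifs in RefSeq windows of 300 bases (build GRCm38.p6), from 250 before to 50 after the start. A window was found for 39 of the 47 genes, and both strands were searched. The antioxidant response element core (TGACNNNGC), a motif bound by Nfe2l1 and Nfe2l2 with small Maf partners, was in the windows of 6 of 39 proteasome genes, 15.4%, and in those of 3781 of all 27025 genes with a window, a like share. The 6 genes were Psmd12 (change 0.55), Psmc6 (0.49), Psmb6 (0.20), Psmb5 (0.08), Psmd9 (-0.06) and Psme4 (-0.14). Their median change was 0.14, against 0.26 in the 32 tested genes whose windows held no match. The paired heat shock unit GAANNTTC was in 7.69% of the proteasome genes and 9.04% of all genes, and its other arrangement TTCNNGAA in 5.13% and 9.6%. The CCAAT box was in 35.9% and 41.1%, and the interferon regulatory factor site (GAAA, any 2 bases, GAAA) in 12.8% and 3.99%. The proteasome genes with that site were Psmb3, Psmd4, Psmd9, Psme1 and Psmg4. For the CCAAT box the median change was 0.32 in 13 tested genes with a match and 0.13 in 25 without. It was 0.06 in 3 genes with GAANNTTC and 0.26 in those without, 0.42 in 2 genes with TTCNNGAA and 0.19 in those without, and 0.16 in 5 genes with the interferon regulatory factor site and 0.26 in those without. The medians with a match thus lay on either side of those without, and none of these differences was tested. Matches of different motifs overlapped in 0 places. A match is a match of letters only.

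The 250 bases before the start are shown for the 2 genes that rose, whose windows held no antioxidant response element core, and for Psmd12 and Psmb5, which held one and changed by 0.55 and 0.08. The capitals mark that motif. Counted from the start, its first base is at -247 in Psmd12, on the opposite strand, and at -47 in Psmb5. They lie at chr11:80428365-80428614 (plus strand, Psmd11), chr7:28050093-28050342 (minus strand, Psmc4), chr11:107479278-107479527 (plus strand, Psmd12) and chr14:54617996-54618245 (minus strand, Psmb5).
Psmd11: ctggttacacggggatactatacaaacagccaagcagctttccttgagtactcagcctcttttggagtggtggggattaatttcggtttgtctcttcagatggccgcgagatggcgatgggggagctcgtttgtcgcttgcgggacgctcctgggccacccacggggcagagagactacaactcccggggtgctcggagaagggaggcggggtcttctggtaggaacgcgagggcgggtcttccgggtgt
Psmc4: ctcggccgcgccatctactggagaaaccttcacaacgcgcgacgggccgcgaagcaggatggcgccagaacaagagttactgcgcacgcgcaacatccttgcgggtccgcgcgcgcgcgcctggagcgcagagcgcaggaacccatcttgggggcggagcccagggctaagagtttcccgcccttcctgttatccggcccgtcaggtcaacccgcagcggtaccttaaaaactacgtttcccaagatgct
Psmd12: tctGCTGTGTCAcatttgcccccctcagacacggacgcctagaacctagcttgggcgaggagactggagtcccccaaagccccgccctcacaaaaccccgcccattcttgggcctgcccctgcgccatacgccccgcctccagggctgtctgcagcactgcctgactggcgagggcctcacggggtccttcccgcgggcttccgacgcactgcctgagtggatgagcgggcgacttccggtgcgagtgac
Psmb5: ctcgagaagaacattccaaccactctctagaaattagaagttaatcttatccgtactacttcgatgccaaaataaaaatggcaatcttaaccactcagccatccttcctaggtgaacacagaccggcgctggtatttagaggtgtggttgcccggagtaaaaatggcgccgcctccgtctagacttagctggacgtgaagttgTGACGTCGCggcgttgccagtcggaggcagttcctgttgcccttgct

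In the alpha ring, which forms the gate of the barrel, 0 of 7 genes tested rose or fell by limma, where 5.55% of all genes did. All 7 changes were above 0, and all 7 had stimulated arrays wholly above the controls. Of all genes tested, 49.1% had a change above 0 and 27.6% had arrays so placed. Psma1 read 11.22 and 11.05 in stimulated arrays, against 10.71 and 10.52 in control arrays, a change of 0.52 ± 0.14 (adjusted p = 0.0858 by limma). Psma3 read 12.08 and 12.09 in stimulated arrays, against 11.63 and 11.69 in control arrays, a change of 0.43 ± 0.12 (adjusted p = 0.0928 by limma). Psma6 read 11.54 and 11.69 in stimulated arrays, against 11.15 and 11.34 in control arrays, a change of 0.37 ± 0.14 (adjusted p = 0.163 by limma). These 3 were the alpha genes with an unadjusted p under 0.05, where 13.9% of all genes were higher and 11.7% lower. Psma5 and Psma7 both changed by 0.26, Psma2 by 0.15 and Psma4 by 0.13.

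In the beta ring, 0 of 7 genes rose or fell by limma, where 5.55% of all genes did. Again all 7 had stimulated arrays wholly above the controls, which held for 27.6% of all genes. Psmb2, a subunit without a cutting site, read 11.08 and 10.97 in stimulated arrays, against 10.59 and 10.67 in control arrays, a change of 0.40 ± 0.13 (adjusted p = 0.117 by limma). Psmb4, also without a cutting site, read 12.60 and 12.34 in stimulated arrays, against 12.07 and 12.16 in control arrays, a change of 0.36 ± 0.14 (adjusted p = 0.189 by limma). Psmb3, the third such subunit named here, read 12.18 and 11.98 in stimulated arrays, against 11.64 and 11.89 in control arrays, a change of 0.32 ± 0.15 (adjusted p = 0.252 by limma). Of the beta genes, 2 had an unadjusted p under 0.05, both higher, where 13.9% of all genes were higher and 11.7% lower.

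Of the catalytic subunits of the standard barrel, Psmb7 changed by the median of the beta ring, Psmb6 by less and Psmb5 by the least of its 7 genes. Psmb7, with trypsin-like activity, read 12.21 and 12.27 in stimulated arrays, against 12.01 and 11.98 in control arrays, a change of 0.25 ± 0.12. Psmb6, with caspase-like activity, read 11.58 and 11.68 in stimulated arrays, against 11.35 and 11.51 in control arrays, a change of 0.20 ± 0.13. Psmb5, with chymotrypsin-like activity, read 11.40 and 11.47 in stimulated arrays, against 11.37 and 11.33 in control arrays, a change of 0.08 ± 0.12. The groups were separated by 0.20 in Psmb7 and by only 0.02 in Psmb5, and adjusted p by limma was 0.267, 0.391 and 0.738 in the order given.

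Of the 3 immunoproteasome genes tested, Psmb10 and Psmb8 had changes below 0 and Psmb9 one near 0. Psmb10, the counterpart of Psmb7, read 8.69 and 8.83 in stimulated arrays, against 9.41 and 9.18 in control arrays. This was a change of -0.54 ± 0.14 (0.689-fold, adjusted p = 0.0826 by limma), the lowest of all proteasome genes tested, and both stimulated arrays lay below both controls by 0.35. Psmb8, the counterpart of Psmb5, read 10.03 and 9.89 in stimulated arrays, against 10.31 and 10.21 in control arrays, a change of -0.30 ± 0.13 (adjusted p = 0.217 by limma). Psmb9, the counterpart of Psmb6, read 6.96 and 6.38 in stimulated arrays, against 6.71 and 6.61 in control arrays, and the groups overlapped (change 0.01 ± 0.21, adjusted p = 0.982 by limma). By limma's adjusted test 0 of the 3 tested genes passed in either direction, where 5.55% of all genes did. At an unadjusted p under 0.05, 1 of them, Psmb10, was lower, where 11.7% of all genes were.

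The change of each immunoproteasome gene was also set against that of its standard counterpart within each array. Psmb10 changed by 0.78 less than Psmb7 and Psmb8 by 0.38 less than Psmb5, and in both pairs the within-array differences of stimulated arrays lay wholly below those of control arrays. Psmb9 changed by 0.19 less than Psmb6, and there the arrays overlapped. An exact permutation test of 2 against 2 arrays (two-sided) gave p = 0.333 for the first and second pair, the smallest it allows, and p = 1 for the last.

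**Figure D4:**
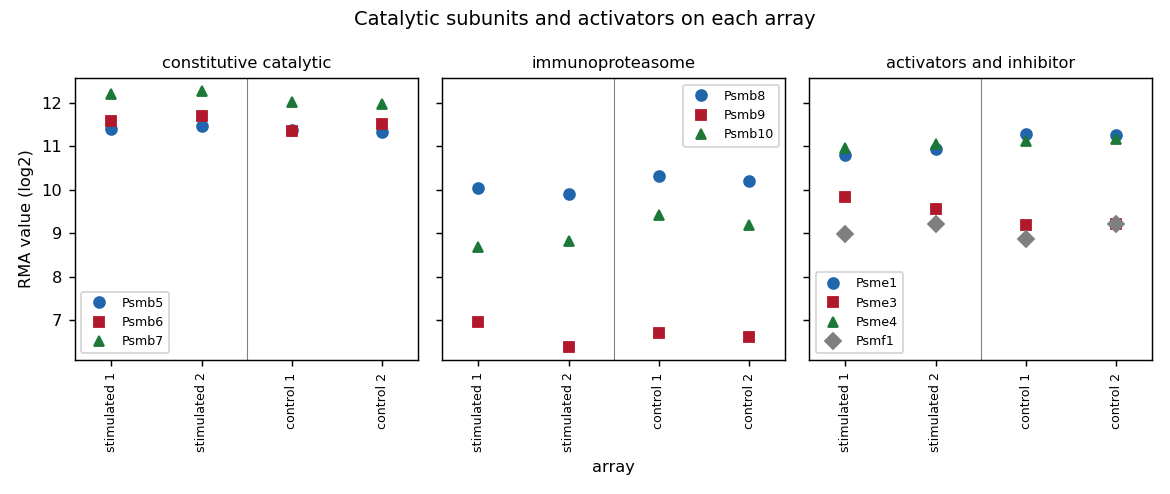
RMA log2 values (vertical axis) of the standard (constitutive) catalytic subunits, the immunoproteasome subunits, and the activators and inhibitor on each array (horizontal axis); each point is 1 array. Psmb8 and Psmb10 lie lower on both stimulated arrays than on both control arrays, while Psmb7 lies higher on both; distances between genes also reflect their probes and are not compared.

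Immunoproteasome genes are also expressed in leukocytes and respond to interferon, so those lists stand beside them. Of 15 genes of antigen processing and the interferon response tested, 0 rose or fell by limma, where 3.91% and 1.64% of all genes did. At an unadjusted p under 0.05, 1 was higher and 1 lower, where 13.9% and 11.7% of all genes were. Both stimulated arrays lay above both controls in 1 gene and below in 4, where 27.6% and 27.7% of all genes did. The median change was 0.01, with 9 changes above 0 and 6 below. The 3 with the smallest p were B2m, the light chain of class I molecules (0.39 ± 0.14, adjusted p = 0.154), Erap1, a peptide-trimming enzyme (-0.33 ± 0.13, adjusted p = 0.18, but 0.01 on its other probe set), and the class I heavy chain gene H2-D1 (0.59 ± 0.29, adjusted p = 0.276, further probe sets -0.51 to 0.73), all by limma. The peptide transporter genes Tap1 and Tap2 changed by 0.09 and 0.01 and the interferon factor Irf1 by -0.13. Tapbp changed by -0.25 (-0.67 on its other probe set) and Stat2 by -0.30 (-0.32 on its other probe set). On the probe sets used for these last genes, both stimulated arrays lay below both controls.

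Of the 8 leukocyte markers with a probe set, Ptprc and Itgam lay below 4.39 on all arrays. Only Cd68, a lysosomal membrane protein of macrophages, rose, by 2.08 ± 0.23 (adjusted p = 0.0186 by limma). It read 6.34 and 6.59 in stimulated arrays, against 4.07 and 4.70 in control arrays, whose mean lay just under the filter level. Cd68 was thus tested only because of its stimulated values, so its call and the size of its rise carry little weight. Of the 6 leukocyte markers tested, 3 changes were above 0 and 3 below, with a median of 0.0027. Adgre1, Lyz2 and Cd79a changed by -0.32, -0.07 and -0.07. Csf1r changed by 0.89, with overlapping groups and 0.09 to 0.30 on other probe sets. The summed level of this list was 8.70 and 8.90 in stimulated arrays, against 8.02 and 8.55 in control arrays. It is the log2 of the summed linear values, so the brightest markers weigh most in it. The part of these markers in the immunoproteasome values was not tested. The summed level was 7.39 and 8.03 in stimulated and 7.44 and 8.32 in control arrays for 8 fibroblast markers, of which 3 lay below 4.39 on all arrays. It was 6.71 and 6.66 in stimulated and 6.90 and 6.75 in control arrays for 5 endothelial markers, of which 4 lay below 4.39 on all arrays. All 11 atrial muscle markers passed the level, at a summed 15.71 and 15.95 in stimulated and 16.01 and 16.00 in control arrays. Of these, Nppa rose (2.00) and Ryr2 and Gja5 fell (-0.85 and -2.40), and 10 of the 11 changes were below 0. Beside the marker counts, 3.91% of all genes tested rose, 1.64% fell and 49.1% had a change above 0. In these bulk samples fewer cells of a type and less RNA per cell cannot be told apart.

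Among the alternative caps of the barrel, Psme1 and Psme3 differed in sign. Psme1, a subunit of the interferon-induced cytoplasmic activator, read 10.80 and 10.92 in stimulated arrays, against 11.27 and 11.26 in control arrays, a change of -0.40 ± 0.12 (adjusted p = 0.112 by limma). Psme3, the nuclear activator of the same family, read 9.84 and 9.55 in stimulated arrays, against 9.19 and 9.21 in control arrays, a change of 0.50 ± 0.14 (adjusted p = 0.0995 by limma), with 0.53 on its second probe set. In neither gene did the groups overlap, and both had an unadjusted p under 0.05. Of all genes tested, 27.6% had stimulated arrays wholly above the controls and 27.7% wholly below. At that unadjusted p, 13.9% of all genes were higher and 11.7% lower. By limma's adjusted test 0 of the 4 genes of this class passed, where 5.55% of all genes did.

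Psme4, a large nuclear cap, read 10.96 and 11.05 in stimulated arrays, against 11.11 and 11.16 in control arrays, a change of -0.14 ± 0.12 (adjusted p = 0.559 by limma). Its other 2 probe sets past the filter changed by -0.47 and -0.19, in the same direction. Psmf1, a protein that binds the core and inhibits it in isolation, read 8.98 and 9.21 in stimulated arrays, against 8.87 and 9.21 in control arrays, with overlapping groups and a change of 0.06 ± 0.17 (adjusted p = 0.877 by limma).

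The assembly chaperones, which build the particle and do not stay in it, had changes of both signs. By limma's adjusted test 0 of 7 passed in either direction, where 5.55% of all genes did. An unadjusted p under 0.05 was reached by 0 of them, where 13.9% of all genes were higher and 11.7% lower. Psmg2, a chaperone of the alpha ring, read 9.96 and 9.60 in stimulated arrays, against 9.63 and 9.08 in control arrays, so that the groups overlapped (0.43 ± 0.22, adjusted p = 0.297 by limma). Psmg4 read 8.53 and 8.47 in stimulated arrays, against 8.31 and 8.38 in control arrays, a change of 0.16 ± 0.12. Psmg3 read 9.29 and 9.32 in stimulated arrays, against 9.25 and 9.15 in control arrays, a change of 0.10 ± 0.12. These 3 and Psmg1, which changed by -0.05, help to form the alpha ring. A dimmer Psmd9 probe set past the filter changed by -0.39, with both stimulated arrays below both controls (unadjusted p = 0.0364, adjusted p = 0.178 by limma over probe sets). On their brightest probe sets the base chaperones Psmd10, Psmd9 and Psmd5 changed by 0.05, -0.06 and -0.08. The SE of the 45 proteasome genes lay between 0.12 and 0.22, so changes of this size were not detectable.

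Several genes were measured by more than 1 probe set, and these did not always read alike. Of the 100 proteasome probe sets, 81 passed the filter and 66 of the 81 had a change above 0. In 51 both stimulated arrays lay above both controls, where 25.3% of all 27000 probe sets tested did, and in 9 both lay below, where 28.8% did. In a limma fit over these probe sets 2 of the 81 rose and 0 fell, where 2.47% of all rose and 1.38% fell. Both were probe sets of Psmd11, the brightest (0.80, adjusted p = 0.0419) and the fourth brightest (0.85, adjusted p = 0.047). The Psmc4 probe set used above had an adjusted p of 0.0553 in this limma fit.

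Psmd11 had 7 probe sets past the filter. The 4 brightest, with means of 10.12 to 11.65, changed by 0.44 to 0.85, and the 3 dimmest, with means of 4.76 to 6.41, by 0.10 to 0.23. Psmc2, Psmd4 and Psmb1 each had a dim probe set that went the other way. Psmc2 read 12.12 and 12.19 in stimulated arrays, against 11.76 and 11.93 in control arrays (0.31 ± 0.13), with 0.35 on its second and -0.19 on its dimmest probe set. Psmd4 read 11.78 and 11.52 in stimulated arrays, against 11.26 and 11.37 in control arrays (0.34 ± 0.14), with 0.29 and -0.09 on the others. Psmb1, a beta ring subunit, read 11.91 and 11.88 in stimulated arrays, against 11.79 and 11.80 in control arrays (0.10 ± 0.12), with -0.06 and -0.03 on the others. Which transcripts the dim probe sets measure was not tested. Of the 81, 6 carry the manufacturer's x mark for probes similar to other sequences and 4 the s mark for transcripts of several genes or variants, among them the brightest Psmd11 probe set. Copies of proteasome genes elsewhere in the genome may therefore add to these readings.

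**Figure D5:**
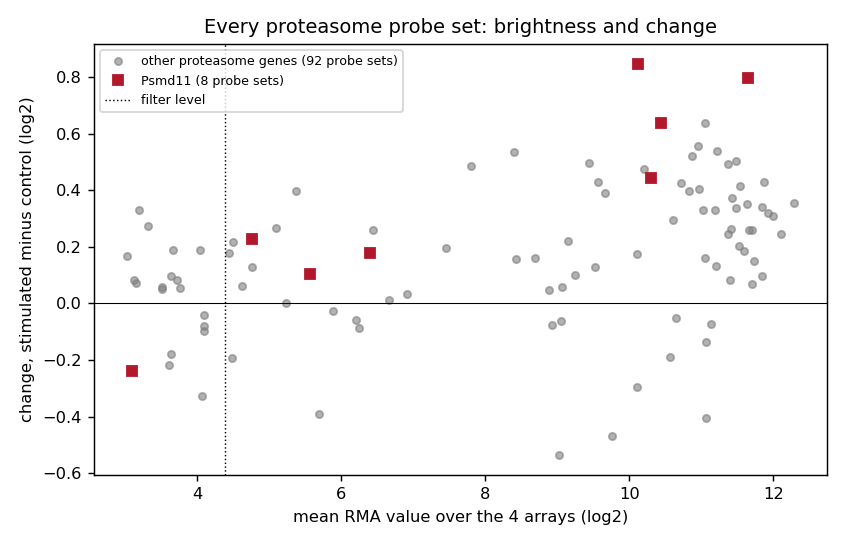
Mean RMA log2 value over the 4 arrays (horizontal axis) and log2 change, stimulated minus control (vertical axis), of each of the 100 proteasome probe sets; squares are the 8 probe sets of Psmd11 and the dotted line is the filter level of 4.39. The Psmd11 probe sets above a mean of 10 changed by 0.44 to 0.85, and its dimmer ones by -0.24 to 0.23.

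Proteins that work with the proteasome were read from lists of other genes. Of 14 further subunits and associated proteins tested, Psme3ip1 among them, 3 rose and 0 fell, against 3.91% and 1.64% of all genes, with a median change of 0.05. Zfand2a, a stress-induced zinc finger protein that binds the particle, read 10.70 and 11.80 in stimulated arrays, against 8.74 and 8.73 in control arrays, a rise of 2.52 ± 0.34 (adjusted p = 0.0256 by limma; further probe sets gave 0.52 to 2.26). Zfand5, a related activator of the proteasome, rose by 0.81 ± 0.12 (adjusted p = 0.0293 by limma, -0.07 to 0.60 on others) and Pithd1 rose by 0.76 ± 0.14 (adjusted p = 0.0392 by limma, -0.12 and -0.10 on others). The deubiquitinases of the particle, Usp14 and Uchl5, changed by 0.61 and 0.40 (adjusted p = 0.114 and 0.111 by limma). Ublcp1 had the lowest change of the 14, -0.42 (adjusted p = 0.112 by limma, -0.52 to -0.28 on other probe sets). Sem1, the smallest lid subunit, changed by -0.36 ± 0.13 (adjusted p = 0.154 by limma) and Pomp, the chaperone that completes the core, by -0.22 ± 0.12 (adjusted p = 0.312 by limma). In both, the stimulated arrays lay below both controls, unlike most lid and core genes.

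Of 9 shuttle and segregase genes, which bring ubiquitin-tagged proteins to the proteasome, 3 rose and 0 fell, where 3.91% of all genes rose and 1.64% fell, and the median change was 0.56. With 9 genes, 1 call is already a larger share than that of all genes, and no test was made of the list. Sqstm1, a receptor that also feeds autophagy, read 12.40 and 12.54 in stimulated arrays, against 10.78 and 11.03 in control arrays, a rise of 1.56 ± 0.14 (adjusted p = 0.0131 by limma, 0.58 on its other probe set). Rad23b, a shuttle receptor, rose by 0.71 ± 0.12 (adjusted p = 0.037 by limma) and Ufd1, a cofactor of the segregase Vcp, by 0.65 ± 0.12 (adjusted p = 0.0415 by limma). Vcp itself changed by 0.27 ± 0.13 (adjusted p = 0.251 by limma, 0.71 on its other probe set) and its cofactor Nploc4 by 0.59. Of the ubiquitin genes and activating enzymes only Uba6 had a probe set with 1 symbol, and it changed by 0.50 ± 0.19 (adjusted p = 0.169 by limma).

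Nfe2l1 is the transcription factor that raises proteasome genes when the proteasome is overloaded, and it acts with small Maf proteins. Of 9 genes of this factor, its relatives and its processing, 3 rose and 0 fell, beside 3.91% and 1.64% of all genes, with a median change of 0.66. All 3 were small Maf genes, which also partner other factors. Maff read 8.51 and 9.49 in stimulated arrays, against 5.57 and 6.67 in control arrays, a rise of 2.88 ± 0.44 (adjusted p = 0.0302 by limma). Mafk rose by 1.23 ± 0.18 (adjusted p = 0.0289 by limma) and Mafg by 1.06 ± 0.17 (adjusted p = 0.0316 by limma). Nfe2l1 read 9.27 and 8.77 in stimulated arrays, against 8.37 and 8.01 in control arrays, a change of 0.83 ± 0.22 (adjusted p = 0.0791 by limma), and the groups did not overlap. Nfe2l2, its relative in the oxidative stress response, changed by 0.66 ± 0.15 (adjusted p = 0.0623 by limma) and Ngly1, which processes Nfe2l1, by 0.42 ± 0.13 (adjusted p = 0.113 by limma).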

How the data were processed

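Total RNA of 4 HL-1 samples, 2 stimulated and 2 control, was measured on 1 array each. The deposited values are on the log2 scale, made with RMA per the submitters' processing notes; its version and settings are not given in the sources used here. The array medians were 4.96 to 5.01, and the number of arrays limits the precision. Of 45101 probe sets, 64 were manufacturer's controls, 34945 had 1 gene symbol, 932 several and 9160 none. The gene IDs of 34741 were found in a RefSeq table of GRCm38.p6, and 0 symbols needed updating. The 2 groups were tested in R 4.3.3 with limma 3.58.1 (eBayes, two-sided, Benjamini-Hochberg over 13050 genes or 27000 probe sets), after a test on simulated data. Among proteasome genes, per-array values are given for those past the test and the 3 smallest p in each class. They are also given for immunoproteasome and activator genes, and for genes whose probe sets differed in sign or by over 0.5. In the further lists such values are given for a few genes only. Genes named in each further list are those past the test and the 3 smallest p; others were added after their values were seen. Classes and lists are described by counts and medians without a test of their own. The members and lists were chosen with earlier results of these data known. Listed genes without a probe set of 1 symbol are not analysed here. The alternatives were other filters, the mean of a gene's probe sets, median centring, a variance trend and leaving out each array.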

Additional observations from a re-analysis of the deposited data

How the results depend on the processing

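Of all genes tested, 510 of 13050 rose in the main fit, 614 of 9785 with the 60th percentile filter and 560 of 13050 with a variance trend. With the mean of all probe sets 485 of 12296 rose, without a filter 466 of 18193, and with centred arrays 553 of 13050. The count of proteasome genes that rose was 2, and it was 4 with the 60th percentile filter and 4 with a variance trend, where Psmd12 and Psmd14 were added. It was 3 with the mean of all probe sets, 2 without a filter and 2 with centred arrays, and 0 to 0 with any 1 array left out, in fits that assume a lone array to vary like the other group. The count over all genes, 724 in either direction, was 20 to 113 in those fits. In each of these settings 0 proteasome genes fell. Of the probe sets, 1 rose without a filter, 4 with the 60th percentile filter and 0 to 0 with 1 array left out. The shares of all probe sets that rose in these settings are not given here. The median change of the proteasome genes, 0.26, was 0.18 with the mean of all probe sets and 0.20 to 0.27 with 1 array left out. The median of the activators and inhibitor was 0.0026 with the mean of all probe sets, and -0.14 to 0.057 with 1 array left out (0.04 without stimulated replicate 1 and 0.057 without control replicate 2); that of the chaperones was -2e-04 (without control replicate 2) to 0.094. With 1 array left out, the change was -0.28 to 0.30 in Psmb9, -2e-04 to 0.094 in Psmd10, -0.18 to 0.027 in Psmd5, -0.13 to 0.0078 in Psmd9 and -0.11 to 0.22 in Psmf1. The cause of these changes of sign was not tested. In 40 of the 45 genes the change kept its sign in all 4 such fits. No paired fit was run. Experiments 1 and 2 are named for the stimulated samples, and 2 for 1 of the control samples. The pairing that these numbers may imply was not tested. The number of arrays, and for the dimmest probe sets their closeness to background, limit what can be seen.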
